A study of Homo sapiens with 6 samples.

Results

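The subunits of the mitochondrial respiratory chain and of ATP synthase were examined as 1 group of transcripts, complex by complex. The members were the protein-coding rows of the count table whose symbols begin NDUFA, NDUFB, NDUFC, NDUFS or NDUFV with a number, SDHA to SDHD, UQCR, CYC1, COX4 to COX8, ATP5, and MT-ND, MT-CO, MT-ATP or MT-CYB. The rule gave 101 of 34371 rows, with 43 in complex I, 4 in complex II, 11 in complex III, 22 in complex IV and 21 in complex V. Of these, 88 are nuclear genes and 13 lie on mitochondrial DNA. NDUFA4 and NDUFA4L2 were placed in complex IV, where NDUFA4 is now assigned, and COX7A2L, a factor that joins complexes III and IV, was kept with complex IV. NDUFS1 and ATP5IF1 were not analysed here, and the rule leaves out NDUFAB1.

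All 6 libraries came from ME-1, a human acute myeloid leukaemia cell line with the CBFB::MYH11 fusion. In 3 libraries the cells carried an overexpression vector for SPNS2, which carries sphingosine-1-phosphate out of cells, and in 3 they carried the empty vector. Transduced cells were selected in both groups before polyadenylated RNA was sequenced. The labels give neither the promoter of the vector nor a separate culture or transduction for each library, so the spread behind each p-value is that between these samples and could be technical.

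The chain passes electrons from NADH (complex I) or succinate (complex II) through ubiquinone, complex III and cytochrome c to oxygen at complex IV. Complexes I, III and IV pump protons, and complex V, the ATP synthase, uses the gradient to make ATP. Most subunits are encoded in the nucleus and imported, while a small core of the membrane parts of complexes I, III, IV and V is transcribed inside mitochondria from long precursor RNAs, and complex II is nuclear in full. Acute myeloid leukaemia cells are known to rely on this oxidative phosphorylation.

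Library totals were 32362204, 31361562 and 33540256 counts with SPNS2 and 38489992, 28605187 and 32468237 with the empty vector. Levels are given as CPM, counts relative to the TMM-scaled library total, and a count of 0 in 1 library allows up to 0.0779 to 0.105 CPM, a limit that covers counting error only. The vector SPNS2 sequence, which has a row of its own, held 25283, 24792 and 25752 counts in the SPNS2 libraries and 9, 3 and 0 in the empty vector libraries. The 9 markers of ME-1 identity, PTPRC, SPI1, MPO, CD33, ANPEP, KIT, CD34, CBFB and MYH11, were detected and summed to 27857 to 29332 CPM with SPNS2 and 27982 to 28438 CPM with the empty vector. Among markers of other cell types, 3 of 4 erythroid genes were at 0 counts, fibroblast genes summed to at most 0.246 CPM and muscle genes to at most 1.43 CPM in any library. T cell markers summed to 2.80 to 3.38 CPM with SPNS2 and 3.60 to 4.57 with the empty vector, B cell markers (1 of 3 at 0 counts) to 2.78 to 3.65 and 3.65 to 3.81, and 3 epithelial markers, mostly EPCAM, to 141 to 144 and 119 to 128. Within the T cell sum CD3E went the other way and was called higher with SPNS2 in the main edgeR test. That call was lost with DESeq2 (log2 fold change 0.86, adjusted p = 0.160) and without empty vector library 1 (0.71, edgeR adjusted p = 0.109). The part of all these markers in the results was not tested. Empty vector library 1 stood apart in its mitochondrial mRNAs, whose sum was 52471 CPM there, against 56127 to 57961 CPM in the other 5 libraries. Fold changes of those mRNAs and their sum are therefore given with and without it.

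The called changes among respiratory chain transcripts were small and mostly downward. Of 95 members with enough counts to test, 4 were higher and 16 were lower in SPNS2 cells at an adjusted p under 0.05 (edgeR quasi-likelihood test, adjusted over all 13308 rows tested). The 20 called members are 21.1% of those tested, and 24.5% of all rows passed the same threshold. In the lower direction the share was 16.8% of members and 12.6% of all rows, and in the higher direction 4.21% and 11.9%. The median log2 fold change was -0.020 over the members and 0.0026 over all rows tested. The 16 lower members fell by 5.10 to 18.7%, and at the median they fell by 9.16%. In bulk RNA, fewer cells that carry a transcript and less of it per cell cannot be told apart.

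Called members made up 25.6% of those tested in complex I, 25% in complex II, 36.4% in complex III, 11.8% in complex IV and 10% in complex V, against 24.5% of all rows. Complex I had 10 members lower and 1 higher of 43, complex II had 1 lower of 4, complex III had 3 lower and 1 higher of 11, complex IV had 2 higher of 17 tested, and complex V had 2 lower of 20 tested. Median log2 fold changes were -0.049 for complex I, -0.011 for complex II, -0.023 for complex III, -0.0052 for complex IV and 0.0033 for complex V. Whether complexes differ from each other was not tested. All 3 SPNS2 libraries lay outside the range of all 3 empty vector libraries for 34 of the 95 members, 25 of them lower and 9 higher. Over all rows tested, 40.1% had groups that did not overlap, 20.3% lower and 19.8% higher. The 6 members with too few counts to test were COX4I2, COX6A2, COX7A1, COX7B2, COX8C and ATP5MGL. Without SPNS2 library 1 or without empty vector library 3, 10 members were called lower in place of 16. Over all rows 1167 and 1296 were then called lower in place of 1683. The median over members was -0.047 without empty vector library 1 and -0.0054 without empty vector library 3. The complex I median was -0.028 without SPNS2 library 1, and the complex II median was -0.0056 without SPNS2 library 1, -0.0039 without empty vector library 1 and -0.018 without empty vector library 3. For complex IV it was -0.034, 0.032 and 0.0028 without SPNS2 library 1, 2 or 3 and -0.013, -0.0076 and 0.017 without empty vector library 1, 2 or 3. For complex V it was -0.0072, 0.0054 and 0.011 without SPNS2 library 1, 2 or 3 and -0.026, 0.011 and 0.025 without empty vector library 1, 2 or 3. The complex III median turned to 0.012 without empty vector library 3. The medians of complexes III, IV and V thus have no stable sign.

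**Figure D1:**
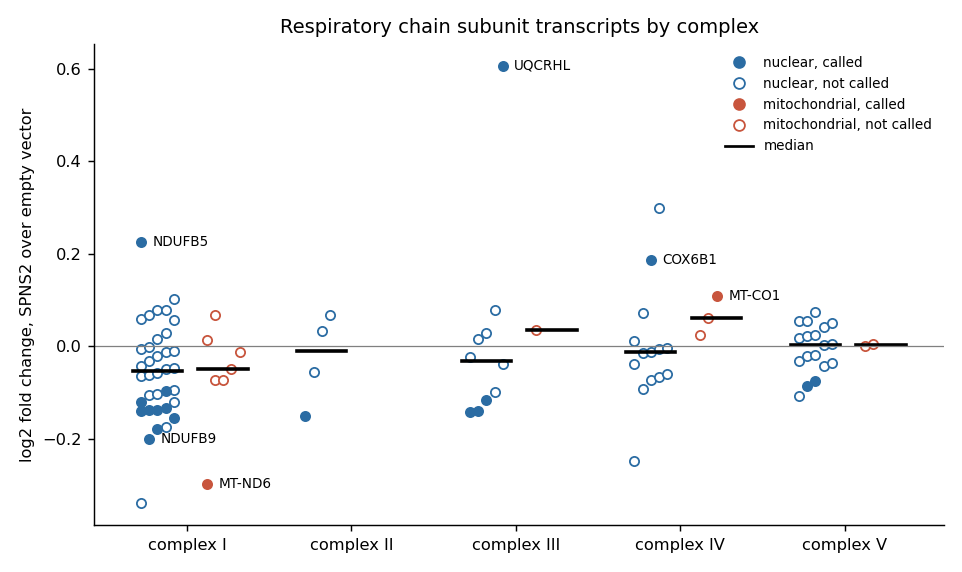
Log2 fold change, SPNS2 over empty vector, of each of the 95 tested members (vertical axis), grouped by complex and split into nuclear genes (blue) and mitochondrial genes (red); filled points passed an adjusted p under 0.05 and black bars are medians. Complex I holds 43 of the 95 points and 10 of the 16 called falls, complex IV has no called fall, and all called changes except UQCRHL lie between -0.30 and 0.23.

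Because nuclear respiratory genes are known to share promoter elements for NRF1, GABP and YY1, the promoters of members with called changes in both directions were read. The 4 shown, chosen after their values were seen, are those of UQCRC1, UQCR11 and SDHB, which were lower with SPNS2, and of COX6B1, which was higher. Each sequence is from RefSeq (GRCh38.p14), 300 bases written 5′ to 3′ on the strand of the gene, with the start of the transcript at base 251. Capitals mark exact matches, on either strand, to GCGCNTGCG (NRF1), CCGGAAG (GABP) and AAGATGGCG (YY1). The windows are chr3:48609597-48609896 on the minus strand for UQCRC1, chr19:1605413-1605712 on the minus strand for UQCR11, chr1:17053983-17054282 on the minus strand for SDHB and chr19:35648073-35648372 on the plus strand for COX6B1.
UQCRC1: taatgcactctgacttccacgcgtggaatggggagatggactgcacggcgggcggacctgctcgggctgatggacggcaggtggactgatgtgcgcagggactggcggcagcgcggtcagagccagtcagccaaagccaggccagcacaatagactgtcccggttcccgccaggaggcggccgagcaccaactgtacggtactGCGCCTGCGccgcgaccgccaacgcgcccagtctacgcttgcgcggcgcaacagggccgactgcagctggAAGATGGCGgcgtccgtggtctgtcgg
UQCR11: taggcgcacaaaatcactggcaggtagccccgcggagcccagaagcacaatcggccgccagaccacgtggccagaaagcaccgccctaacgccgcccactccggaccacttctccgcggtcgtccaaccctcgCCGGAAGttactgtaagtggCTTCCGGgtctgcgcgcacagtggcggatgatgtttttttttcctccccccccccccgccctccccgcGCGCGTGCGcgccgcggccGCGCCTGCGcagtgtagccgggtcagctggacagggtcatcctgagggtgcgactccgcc
SDHB: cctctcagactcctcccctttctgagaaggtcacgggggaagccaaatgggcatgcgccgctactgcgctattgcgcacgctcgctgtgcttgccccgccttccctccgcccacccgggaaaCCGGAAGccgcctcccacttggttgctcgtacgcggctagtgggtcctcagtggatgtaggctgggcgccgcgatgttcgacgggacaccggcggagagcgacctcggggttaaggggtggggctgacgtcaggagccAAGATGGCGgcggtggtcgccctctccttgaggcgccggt
COX6B1: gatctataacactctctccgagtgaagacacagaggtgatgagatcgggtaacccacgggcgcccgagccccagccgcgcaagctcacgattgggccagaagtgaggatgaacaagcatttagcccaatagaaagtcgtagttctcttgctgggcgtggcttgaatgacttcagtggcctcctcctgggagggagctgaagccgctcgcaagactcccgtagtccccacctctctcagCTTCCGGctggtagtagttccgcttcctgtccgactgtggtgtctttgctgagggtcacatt

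UQCRC1 held an NRF1 and a YY1 match, UQCR11 held 2 NRF1 and 2 GABP matches, SDHB held a GABP and a YY1 match, and COX6B1 held 1 GABP match. No match overlapped another in these 4 windows. Promoters were found for 65 tested nuclear members, and at least 1 of the 3 motifs stood in 38 of them (58.5%), against 18.3% of the 27305 promoters in the table. By motif the shares were 33.8% and 8.05% for NRF1, 29.2% and 10.7% for GABP, and 12.3% and 1.85% for YY1. Among members called lower, 7 of 11 promoters (63.6%) held a motif, and among members not called 30 of 53 (56.6%). The motifs were more frequent in the members than in all promoters of the table, and both the lower members and those not called held them. The promoters of the table were not matched to the members in expression, gene type or GC content. A match is a string of letters and does not show that a factor binds there.

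Complex I, the NADH dehydrogenase, held 43 of the 95 tested and 11 of the 20 called members. Its nuclear members were lower in 9 cases and higher in 1 of 36, and MT-ND6, described with the mitochondrial genes, was also lower. By name, 4 of 7 NDUFS members, 3 of 11 NDUFB members and 2 of 12 NDUFA members fell, 1 NDUFB member rose, and none of the 3 NDUFV and 3 NDUFC members was called. NDUFV3 and NDUFC1 had log2 fold changes of -0.0047 and -0.0013. The summed level of the 36 nuclear members was 2246, 2289 and 2305 CPM in the SPNS2 libraries, against 2377, 2379 and 2438 CPM in the empty vector libraries. The groups did not overlap in this sum, which was 0.951 times as high with SPNS2. Without empty vector library 3, 6 members of complex I were called lower, and without SPNS2 library 1 a further member, NDUFA6, was called higher (0.25, edgeR adjusted p = 0.0130).

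The nuclear core of complex I carries the NADH site, the iron-sulfur chain and the ubiquinone site. NDUFS8 (ENSG00000110717.13), which holds iron-sulfur clusters close to the membrane arm, stood at 61.0, 63.1 and 64.7 CPM in the SPNS2 libraries, against 72.2, 70.7 and 70.9 CPM in the empty vector libraries. NDUFS7 (ENSG00000115286.20), which holds the last cluster of the chain next to the ubiquinone site, stood at 58.3, 63.8 and 62.3 CPM in the SPNS2 libraries, against 73.1, 64.9 and 66.9 CPM in the empty vector libraries. Both were lower in every SPNS2 library, with log2 fold changes of -0.18 (SE 0.0325, edgeR adjusted p = 0.00238) for NDUFS8 and -0.16 (SE 0.0482, edgeR adjusted p = 0.0372) for NDUFS7. NDUFV1, the subunit that binds NADH and FMN, stood at 159.9, 171 and 176 CPM in the SPNS2 libraries, against 182, 169 and 176 CPM in the empty vector libraries. NDUFV2, its iron-sulfur partner, stood at 62.2, 58.1 and 60.5 CPM in the SPNS2 libraries, against 61.3, 62.6 and 63.1 CPM in the empty vector libraries. NDUFS3, a core subunit of the same arm, stood at 3.70, 4.30 and 4.33 CPM in the SPNS2 libraries, against 4.51, 3.79 and 4.53 CPM in the empty vector libraries, from 108 to 174 counts a library. The last 3 overlapped between groups and were not called, with log2 fold changes of -0.057, -0.048 and -0.061. The NDUFS7 call was lost without SPNS2 library 1 or 3 (edgeR adjusted p = 0.145 and 0.0686) and without empty vector library 1 or 3 (0.121 and 0.0562).

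Supernumerary subunits surround this core and are needed to assemble and stabilise it. NDUFB9 (ENSG00000147684.10), at the far end of the membrane arm, had the smallest p of all members and stood at 223, 231 and 227 CPM in the SPNS2 libraries, against 263, 256 and 263 CPM in the empty vector libraries. Its mean was 227 ± 3.94 CPM with SPNS2 and 261 ± 3.84 CPM with the empty vector (SD, n = 3 each), a log2 fold change of -0.20 (SE 0.0257, edgeR adjusted p = 0.000299). NDUFB8 (ENSG00000166136.16), of the same arm, stood at 121, 120.1 and 125 CPM in the SPNS2 libraries, against 136, 129 and 136 CPM in the empty vector libraries. NDUFB10 (ENSG00000140990.15) stood at 87.7, 92.3 and 88.8 CPM in the SPNS2 libraries, against 94.6, 96.7 and 96.1 CPM in the empty vector libraries. All SPNS2 libraries were below all empty vector libraries for these 3 genes, and the log2 fold changes of NDUFB8 and NDUFB10 were -0.13 and -0.097 (edgeR adjusted p = 0.0108 and 0.0400). NDUFB5 (ENSG00000136521.13), also of the membrane arm, went the other way and stood at 60.5, 60.7 and 63.2 CPM in the SPNS2 libraries, against 49.0, 54.6 and 54.5 CPM in the empty vector libraries. Every SPNS2 library was above every empty vector library, and NDUFB5 was the only complex I member called higher, at 0.23 (SE 0.0441, edgeR adjusted p = 0.00367). The NDUFB10 call was lost with DESeq2 (adjusted p = 0.0871), without SPNS2 library 1 or 3 (edgeR adjusted p = 0.143 and 0.108), without empty vector library 2 or 3 (0.116 and 0.0942), and with offsets for GC content and length (0.0597).

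NDUFS5 (ENSG00000168653.11), on the intermembrane space side of complex I, stood at 106, 104 and 106 CPM in the SPNS2 libraries, against 114, 117 and 118 CPM in the empty vector libraries. NDUFS6 (ENSG00000145494.12), a zinc-binding subunit of the peripheral arm, stood at 90.0, 89.8 and 87.5 CPM in the SPNS2 libraries, against 94.2, 98.3 and 102 CPM in the empty vector libraries. Both were lower in every SPNS2 library, with log2 fold changes of -0.14 and -0.14 (edgeR adjusted p = 0.00501 and 0.0137). NDUFA13 (ENSG00000186010.19), also known as GRIM-19 and studied as a regulator of cell death, stood at 163, 167 and 164 CPM in the SPNS2 libraries, against 180.3, 175 and 181 CPM in the empty vector libraries. NDUFA11 (ENSG00000174886.14), a membrane subunit at the contact with complex III, stood at 74.7, 71.2 and 77.4 CPM in the SPNS2 libraries, against 79.9, 82.9 and 83.4 CPM in the empty vector libraries. These 2 did not overlap between groups either, with log2 fold changes of -0.12 (SE 0.0268, edgeR adjusted p = 0.00764) for NDUFA13 and -0.14 (SE 0.0365, edgeR adjusted p = 0.0174) for NDUFA11. The NDUFS6 call was lost without SPNS2 library 3 (edgeR adjusted p = 0.0565) or empty vector library 3 (0.0546). The NDUFA11 call was lost without SPNS2 library 1 or 2 (edgeR adjusted p = 0.0531 and 0.0757) or empty vector library 2 or 3 (0.0597 and 0.0593).

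The remaining nuclear members of complex I were not called, with log2 fold changes from -0.34 for NDUFA3 to 0.10 for NDUFB1. NDUFA3 rested on 18 to 58 counts a library, and NDUFC2-KCTD14 is a readthrough transcript that shares reads with NDUFC2, so the values of both are uncertain. NDUFA12 was called lower without empty vector library 1 (-0.17, edgeR adjusted p = 0.0278) and with offsets for GC content and length (-0.13, 0.0491), as was NDUFB3 with the offsets alone (-0.12, 0.0466). NDUFB7 (-0.093, edgeR adjusted p = 0.0856) and NDUFS4 (0.078, 0.207) did not overlap between groups but did not pass the test.

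**Figure D2:**
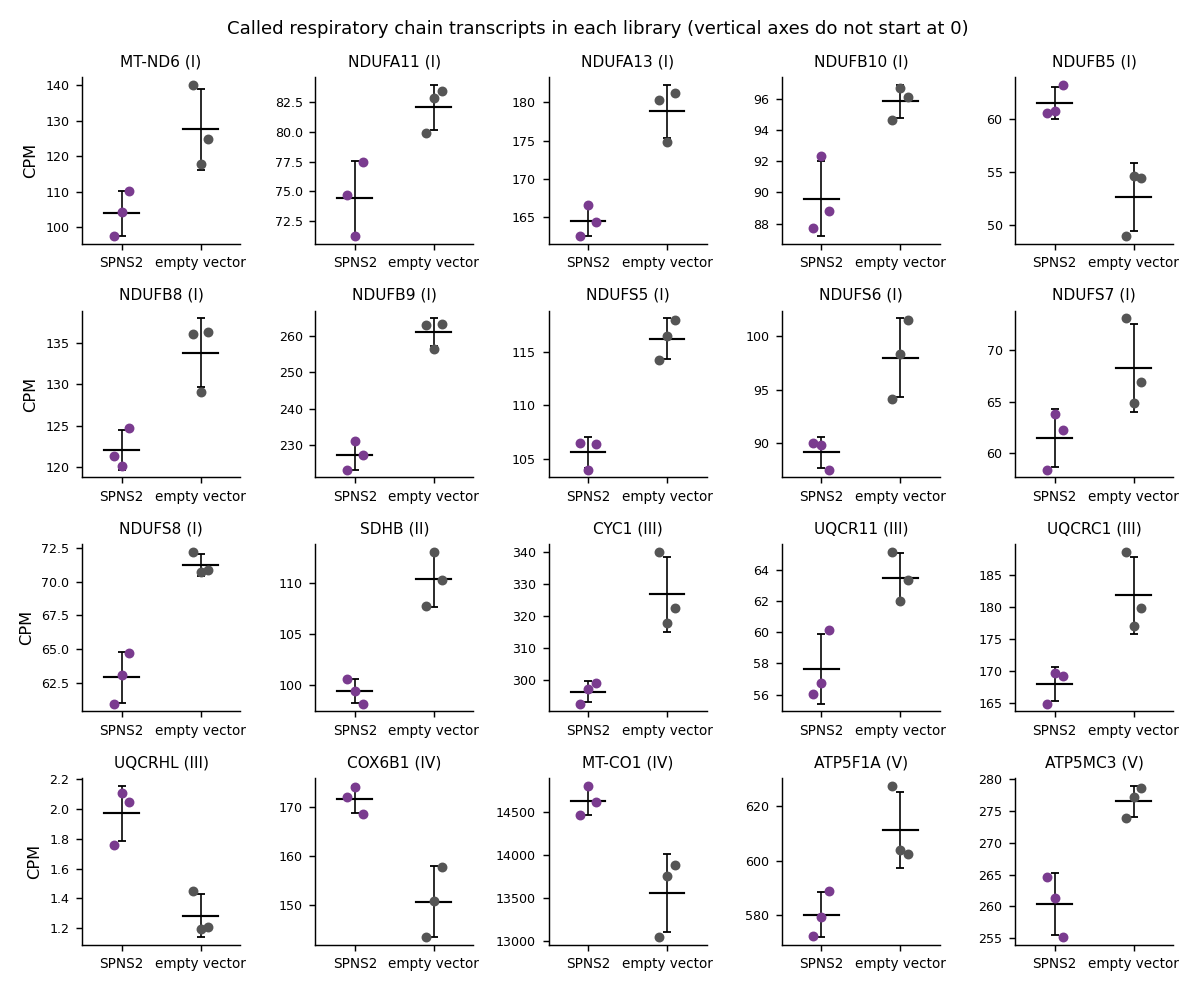
CPM of the 20 called members in each library (points), with the mean and SD of 3 libraries, SPNS2 in purple on the left and empty vector in grey on the right; complex in brackets, and axes that do not start at 0. No SPNS2 point overlaps the empty vector range in any panel, 16 panels are lower and 4 higher with SPNS2, and the largest fall is 18.7%.

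Complex II, succinate dehydrogenase, links the chain to the tricarboxylic acid cycle. SDHB (ENSG00000117118.10), its iron-sulfur subunit, stood at 101, 99.4 and 98.2 CPM in the SPNS2 libraries, against 108, 113 and 110.4 CPM in the empty vector libraries. The groups did not overlap, and SDHB fell by 0.15 on the log2 scale (SE 0.0298, edgeR adjusted p = 0.00397). SDHA, the flavoprotein that oxidises succinate, stood at 131, 135 and 127 CPM in the SPNS2 libraries, against 136, 136 and 136 CPM in the empty vector libraries. SDHC, a membrane anchor of the heme and ubiquinone site, stood at 54.2, 53.7 and 57.1 CPM in the SPNS2 libraries, against 54.9, 53.6 and 52.8 CPM in the empty vector libraries. SDHD, the other anchor, stood at 64.3, 64.6 and 68.6 CPM in the SPNS2 libraries, against 62.5, 62.4 and 63.4 CPM in the empty vector libraries. SDHA was lower and SDHD higher in every SPNS2 library while SDHC overlapped, and none of the 3 passed the test, with log2 fold changes of -0.055 for SDHA, 0.033 for SDHC and 0.069 for SDHD. The 4 transcripts summed to 351 ± 1.25 CPM with SPNS2 and 363 ± 2.42 CPM with the empty vector (SD, n = 3 each), without overlap.

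Complex III, the cytochrome bc1 complex, had 3 falls and 1 rise among 11 members. Its nuclear members summed to 1362, 1364 and 1360 CPM in the SPNS2 libraries, against 1407, 1390 and 1427 CPM in the empty vector libraries. The groups did not overlap in this sum, which was 0.967 times as high with SPNS2. CYC1 (ENSG00000179091.5), cytochrome c1, stood at 293, 297 and 299 CPM in the SPNS2 libraries, against 339.9, 318 and 323 CPM in the empty vector libraries. UQCRC1 (ENSG00000010256.11), a core protein on the matrix side, stood at 165, 169.6 and 169 CPM in the SPNS2 libraries, against 189, 177 and 179.8 CPM in the empty vector libraries. UQCR11 (ENSG00000127540.12), a small supernumerary subunit, stood at 56.0, 56.7 and 60.2 CPM in the SPNS2 libraries, against 65.2, 62.0 and 63.3 CPM in the empty vector libraries. Each was lower in every SPNS2 library, and the log2 fold changes were -0.14 (SE 0.0291, edgeR adjusted p = 0.00502) for CYC1, -0.12 (SE 0.0303, edgeR adjusted p = 0.0177) for UQCRC1 and -0.14 (SE 0.0367, edgeR adjusted p = 0.0173) for UQCR11. UQCRFS1, the Rieske iron-sulfur protein, stood at 86.0, 85.3 and 89.0 CPM in the SPNS2 libraries, against 88.1, 91.5 and 87.8 CPM in the empty vector libraries. It overlapped between groups and was not called (-0.038, edgeR adjusted p = 0.428), so the calls do not cover all catalytic subunits. The core protein UQCRC2 was at 0.015 (edgeR adjusted p = 0.709), UQCRH at -0.023 (0.713), UQCR10 at 0.029 (0.579), UQCRQ at -0.099 (0.106) and UQCRB at 0.079 (0.0856), all on the log2 scale. The groups did not overlap for UQCRQ, lower in every SPNS2 library, and for UQCRB, higher in every SPNS2 library, and UQCRB was called higher without empty vector library 3 (0.11, edgeR adjusted p = 0.0343).

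UQCRHL (ENSG00000233954.6), a near-identical copy of the hinge protein gene UQCRH, stood at 1.76, 2.10 and 2.05 CPM in the SPNS2 libraries, against 1.45, 1.19 and 1.21 CPM in the empty vector libraries. Its log2 fold change of 0.61 (SE 0.170, edgeR adjusted p = 0.0238) was the highest of the members, on 34 to 69 counts a library. UQCRHL took 0.663, 0.816 and 0.813% of the counts of both genes together with SPNS2, against 0.579, 0.467 and 0.434% with the empty vector. Reads of the 2 copies can be split wrongly, so this rise is uncertain, and the sum of both overlapped between groups, at 252 to 265 CPM with SPNS2 and 251 to 279 CPM with the empty vector. Its call was lost with DESeq2 (adjusted p = 0.121), without SPNS2 library 2 or 3 (edgeR adjusted p = 0.0813 and 0.0675) and without empty vector library 2 or 3 (0.0719 and 0.0689). The UQCRC1 call was lost without SPNS2 library 1 (edgeR adjusted p = 0.0777), and that of UQCR11 without SPNS2 library 1 or 2 (0.0752 and 0.0660) or empty vector library 1 (0.0582). The median over complex III, -0.023, was -0.0057 without SPNS2 library 3, -0.047 without empty vector library 1 and 0.012 without empty vector library 3.

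Complex IV, cytochrome c oxidase, had no called fall. COX6B1 (ENSG00000126267.11), a small subunit on the intermembrane space side that bridges the monomers, stood at 172, 174 and 169 CPM in the SPNS2 libraries, against 144, 151 and 158 CPM in the empty vector libraries. Every SPNS2 library was above every empty vector library, and the mean was 172 ± 2.77 CPM with SPNS2 and 151 ± 7.17 CPM with the empty vector (SD, n = 3 each). With a log2 fold change of 0.19 (SE 0.0352, edgeR adjusted p = 0.00297), it was the only nuclear subunit of complex IV that was called. MT-CO1, the other rise in this complex, is described with the mitochondrial genes. The summed level of the 19 nuclear members overlapped, at 1612, 1544 and 1574 CPM in the SPNS2 libraries, against 1552, 1581 and 1643 CPM in the empty vector libraries.

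Several complex IV subunits exist as pairs of tissue isoforms, and in ME-1 cells the other form was mostly at or near 0 counts. COX4I1 stood at 379, 369.9 and 380.3 CPM in the SPNS2 libraries, against 392, 388 and 402 CPM in the empty vector libraries, whereas COX4I2, known from lung, had 1 count in all 6 libraries. COX6A1 stood at 139.8, 134 and 134 CPM in the SPNS2 libraries, against 131, 138 and 140.1 CPM in the empty vector libraries, whereas COX6A2, the heart and muscle form, had 0 counts. COX7A2 stood at 70.9, 69.8 and 71.4 CPM in the SPNS2 libraries, against 72.0, 73.7 and 77.5 CPM in the empty vector libraries, whereas COX7A1, also of heart and muscle, had 0 counts. COX4I1 and COX7A2 were lower in every SPNS2 library and COX6A1 overlapped, but none passed the test (-0.066, -0.073 and -0.0042, edgeR adjusted p = 0.0728, 0.149 and 0.947). COX7B stood at 100.3, 81.0 and 87.7 CPM in the SPNS2 libraries, against 93.0, 85.1 and 93.2 CPM in the empty vector libraries, and COX7B2 had 0 counts. COX8A stood at 103, 103 and 106 CPM in the SPNS2 libraries, against 108, 107 and 110 CPM in the empty vector libraries, and COX8C, the testis form, had 0 counts. COX8A did not overlap between groups but was not called (-0.060, edgeR adjusted p = 0.151), and COX7B overlapped (-0.013, 0.910). With 0 counts in a library, each absent isoform could still have been present at up to 0.0779 to 0.105 CPM.

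COX6B2, the testis form of COX6B1, was detected at a low level and stood at 1.57, 1.59 and 1.60 CPM in the SPNS2 libraries, against 1.25, 1.23 and 1.40 CPM in the empty vector libraries. It was higher in every SPNS2 library, as COX6B1 was, but at 35 to 54 counts a library it was not called (0.30, edgeR adjusted p = 0.222). COX6B2 took 0.906, 0.907 and 0.941% of the counts of the pair with SPNS2, against 0.860, 0.808 and 0.877% with the empty vector. NDUFA4, a subunit of complex IV, stood at 34.9, 31.8 and 34.1 CPM in the SPNS2 libraries, against 31.7, 34.2 and 35.4 CPM in the empty vector libraries. NDUFA4L2, its relative known from low oxygen, stood at 5.99, 5.67 and 5.31 CPM in the SPNS2 libraries, against 6.23, 7.24 and 6.70 CPM in the empty vector libraries. NDUFA4 overlapped between groups (-0.0052), and NDUFA4L2 was lower in every SPNS2 library without passing the test (-0.25, edgeR adjusted p = 0.0901). COX5A, COX5B, COX6C, COX7C and COX7A2L all overlapped, with log2 fold changes from -0.091 for COX5B to 0.072 for COX7A2L. With offsets for GC content and length, added after the data were seen, COX4I1 and COX7A2 were called lower (edgeR adjusted p = 0.0223 and 0.0290).

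Complex V, the ATP synthase, had 2 small falls among 20 tested members. Its nuclear members summed to 3581, 3581 and 3601 CPM in the SPNS2 libraries, against 3614, 3628 and 3689 CPM in the empty vector libraries. The groups did not overlap in this sum, which was 0.985 times as high with SPNS2. ATP5F1A (ENSG00000152234.16), the alpha subunit of the F1 head, stood at 572, 579 and 589 CPM in the SPNS2 libraries, against 628, 604 and 603 CPM in the empty vector libraries. ATP5MC3 (ENSG00000154518.10), 1 of the 3 genes for the c subunit of the membrane ring, stood at 265, 261 and 255 CPM in the SPNS2 libraries, against 274, 277 and 279 CPM in the empty vector libraries. Both were lower in every SPNS2 library, with log2 fold changes of -0.075 and -0.087 (edgeR adjusted p = 0.0454 and 0.0268). The ATP5F1A call was lost whichever library was left out, with edgeR adjusted p = 0.156, 0.110 and 0.0538 without SPNS2 library 1, 2 or 3 and 0.113, 0.0668 and 0.0604 without empty vector library 1, 2 or 3. The ATP5MC3 call was lost without SPNS2 library 2 or 3 (edgeR adjusted p = 0.0649 and 0.0979) or empty vector library 2 or 3 (0.0764 and 0.0862).

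ATP5F1B, the catalytic beta subunit, stood at 893, 911 and 911 CPM in the SPNS2 libraries, against 935, 927 and 913 CPM in the empty vector libraries. It was lower in every SPNS2 library but was not called (-0.032, edgeR adjusted p = 0.307). The 3 c subunit genes encode the same mature protein with different import sequences. ATP5MC1 stood at 90.0, 90.5 and 96.2 CPM in the SPNS2 libraries, against 88.2, 90.6 and 97.3 CPM in the empty vector libraries. ATP5MC2 stood at 352, 349 and 353 CPM in the SPNS2 libraries, against 337, 344 and 343 CPM in the empty vector libraries. ATP5MC2 was higher in every SPNS2 library without being called (0.041, edgeR adjusted p = 0.226), and ATP5MC1 overlapped (0.0044). ATP5MC3 made up 37.5, 37.3 and 36.2% of the counts of the 3 genes with SPNS2, against 39.2, 38.9 and 38.7% with the empty vector. ATP5MC2 made up 49.8, 49.8 and 50.1% with SPNS2, against 48.2, 48.3 and 47.7% with the empty vector. The summed level of the 3 genes overlapped, at 706, 701 and 705 CPM in the SPNS2 libraries, against 699, 712 and 719 CPM in the empty vector libraries. None of the 4 peripheral stalk genes (ATP5PB, ATP5PD, ATP5PF and ATP5PO) was called, with log2 fold changes of -0.042 to 0.051, and ATP5PB was called lower with the offsets for GC content and length (-0.081, edgeR adjusted p = 0.0342). The 5 other nuclear membrane subunits, ATP5ME, ATP5MF, ATP5MG, ATP5MJ and ATP5MK, lay between -0.021 and 0.075, of which ATP5MJ was called higher without empty vector library 3 (0.16, edgeR adjusted p = 0.0496). ATP5F1D, a subunit of the central stalk, was at -0.11 (edgeR adjusted p = 0.0571) and was called lower with no filter on low counts (-0.11, 0.0338) and without empty vector library 2 (-0.14, 0.0209). ATP5MF-PTCD1 is a readthrough that shares reads with ATP5MF and took 7.92 to 9.70% of the counts of both.

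The 13 mitochondrial genes form 1 transcription system, and 2 of them were called, in opposite directions. These are 15.4% of the 13, against 24.5% of all rows. MT-CO1 (ENSG00000198804.2), the catalytic subunit of complex IV with its hemes and copper, stood at 14462, 14799.5 and 14611 CPM in the SPNS2 libraries, against 13040.2, 13746 and 13882 CPM in the empty vector libraries. All SPNS2 libraries were above all empty vector libraries, and the log2 fold change was 0.11 (SE 0.0219, edgeR adjusted p = 0.00424). MT-ND6 (ENSG00000198695.2), a membrane subunit of complex I and the only mRNA made from the light strand, stood at 97.5, 104 and 110.2 CPM in the SPNS2 libraries, against 140.1, 118 and 125 CPM in the empty vector libraries. All SPNS2 libraries were below all empty vector libraries, with a log2 fold change of -0.30 (SE 0.0601, edgeR adjusted p = 0.00440), the largest fall of any called member. Both calls held under every alternative tried, and without empty vector library 1 the log2 fold changes were 0.082 for MT-CO1 and -0.22 for MT-ND6 (edgeR adjusted p = 0.00369 and 0.00830). MT-ND6 per 1000 counts of the 12 heavy-strand genes was 1.70, 1.81 and 1.97 in the SPNS2 libraries, against 2.68, 2.07 and 2.16 in the empty vector libraries. That ratio was 1.83 ± 0.132 with SPNS2 and 2.30 ± 0.328 with the empty vector (SD, n = 3 each), or 2.12 with the empty vector when library 1 was left out, and it did not overlap. MT-ND6 is the mitochondrial mRNA known to lack a long poly(A) tail, and the libraries were made from polyadenylated RNA with a stranded kit, but use of strand in counting is not given in the sources used here. Without strand, reads of MT-ND6 and of heavy-strand RNA across the same bases cannot be told apart.

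The other complex I genes of the mitochondrial genome overlapped between groups. MT-ND1 stood at 2201, 2150.3 and 2209 CPM in the SPNS2 libraries, against 1968, 2249.9 and 2279 CPM in the empty vector libraries. MT-ND2 stood at 4223, 4207 and 4033 CPM in the SPNS2 libraries, against 3972, 4575 and 4556 CPM in the empty vector libraries. In both, empty vector library 1 had the lowest value of its group. MT-ND3 stood at 367, 366 and 349.7 CPM in the SPNS2 libraries, against 308, 350.1 and 375 CPM in the empty vector libraries. MT-ND4 stood at 7976, 8079 and 7768 CPM in the SPNS2 libraries, against 7368, 8343 and 8304 CPM in the empty vector libraries. MT-ND4L stood at 1269.6, 1393 and 1217 CPM in the SPNS2 libraries, against 1311, 1409 and 1362 CPM in the empty vector libraries. The same library was lowest of its group in these 3 genes too. MT-ND5 stood at 1428, 1400 and 1339 CPM in the SPNS2 libraries, against 1348, 1484 and 1480.2 CPM in the empty vector libraries. Log2 fold changes of the 6 genes lay between -0.073 for MT-ND4L and 0.069 for MT-ND3, and none was called (edgeR adjusted p = 0.254 to 0.865). Without empty vector library 1, MT-ND2 (-0.14, edgeR adjusted p = 0.00174), MT-ND4 (-0.068, 0.0251) and MT-ND5 (-0.094, 0.0310) were called lower, so that 4 mitochondrial mRNAs were lower and 1 higher. MT-ND1, MT-ND3 and MT-ND4L were then at -0.051, -0.0072 and -0.10 and were not called (edgeR adjusted p = 0.108, 0.910 and 0.148). Without SPNS2 library 2, MT-ND4L was called lower (-0.13, edgeR adjusted p = 0.0240), as it was with offsets for GC content and length (-0.093, 0.0298).

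MT-CO2, the complex IV subunit that receives electrons from cytochrome c, stood at 7499, 7804 and 7301 CPM in the SPNS2 libraries, against 6744, 7426 and 7479 CPM in the empty vector libraries. MT-CO3, also of the mitochondrially made core, stood at 7856, 7244 and 7335 CPM in the SPNS2 libraries, against 6992, 7006 and 8041 CPM in the empty vector libraries. MT-CYB, the cytochrome b of complex III, stood at 2702, 2768 and 2732 CPM in the SPNS2 libraries, against 2571, 2756 and 2675 CPM in the empty vector libraries. These 3 overlapped between groups and were not called, with log2 fold changes of 0.062, 0.026 and 0.036, or 0.015, -0.0091 and 0.0095 without empty vector library 1. MT-ATP6, which forms the proton path of the ATP synthase, stood at 6425, 6512 and 6325 CPM in the SPNS2 libraries, against 5988, 6696 and 6581 CPM in the empty vector libraries. MT-ATP8, its small partner, stood at 824, 799 and 796 CPM in the SPNS2 libraries, against 722, 869 and 821 CPM in the empty vector libraries. Both overlapped, with log2 fold changes of -0.00016 and 0.0042. Without empty vector library 1 they were at -0.049 and -0.069 and were not called (edgeR adjusted p = 0.0829 and 0.123). MT-ATP8 shares 46 bases with MT-ATP6 and MT-ND4L shares 7 bases with MT-ND4, so the split of reads within these pairs is uncertain, and nuclear copies of mitochondrial sequence can share reads with any of the 13.

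Per kilobase of gene, MT-CO2, MT-CO3, MT-CO1 and MT-ATP6 had the highest levels, with 11016 CPM per kb with SPNS2 and 10551 with the empty vector for MT-CO2, 9539 CPM per kb with SPNS2 and 9371 with the empty vector for MT-CO3, 9484 CPM per kb with SPNS2 and 8791 with the empty vector for MT-CO1 and 9428 CPM per kb with SPNS2 and 9429.6 with the empty vector for MT-ATP6. MT-ND4 had 5763 CPM per kb with SPNS2 and 5809 with the empty vector, MT-ND4L 4354 CPM per kb with SPNS2 and 4581 with the empty vector, MT-ND2 3987 CPM per kb with SPNS2 and 4191 with the empty vector and MT-ATP8 3894 CPM per kb with SPNS2 and 3885 with the empty vector. MT-CYB and MT-ND1 stood near each other, at 2396 CPM per kb with SPNS2 and 2338 with the empty vector for MT-CYB and 2288 CPM per kb with SPNS2 and 2265 with the empty vector for MT-ND1. MT-ND3 had 1043 CPM per kb with SPNS2 and 995 with the empty vector and MT-ND5 767 CPM per kb with SPNS2 and 793 with the empty vector. MT-ND6 was the lowest in both groups, at 198 CPM per kb with SPNS2 and 243 with the empty vector. Among nuclear members the per-length level was highest for ATP5F1B, at 492 CPM per kb with SPNS2 and 503 with the empty vector, with lengths taken from the longest annotated transcript.

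**Figure D3:**
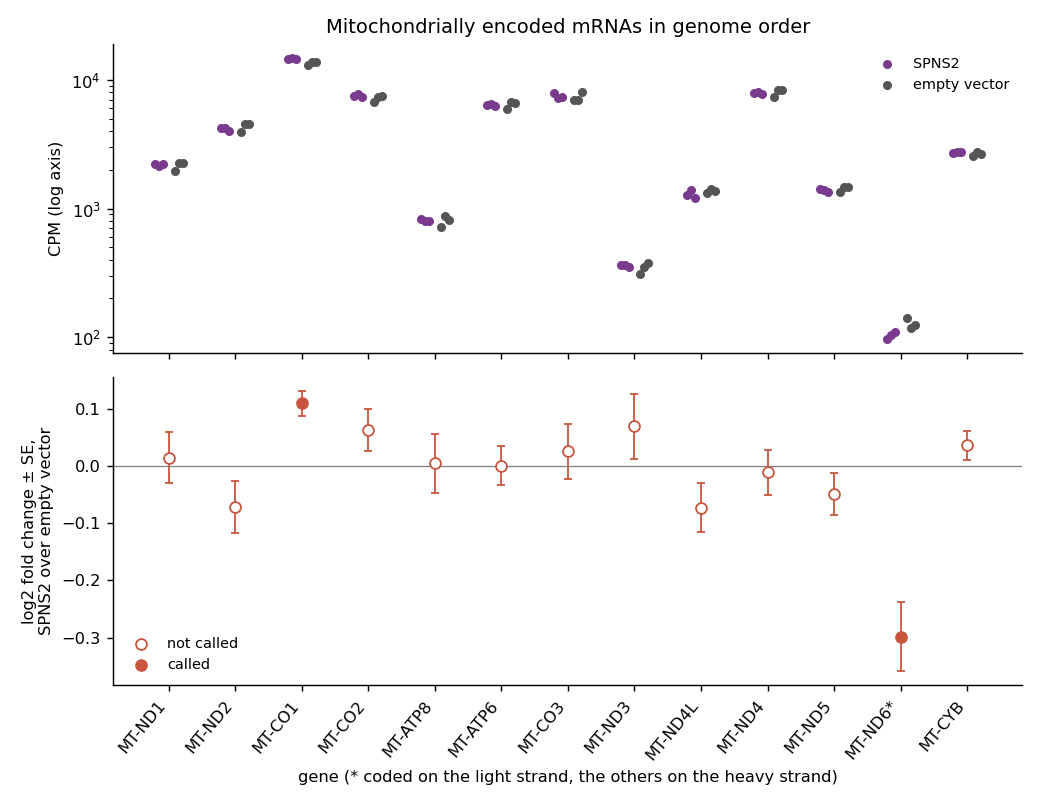
Transcripts of the 13 mitochondrial genes in genome order: CPM in each library on a log axis (top, SPNS2 purple left, empty vector grey right) and the log2 fold change, SPNS2 over empty vector, with its SE (bottom, filled points passed an adjusted p under 0.05). MT-CO1 at 0.11 and MT-ND6 at -0.30 are called, and empty vector library 1 is the lowest of its group for all 12 heavy-strand genes.

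In sum, nuclear members were lower in every SPNS2 library, while mitochondrial members overlapped between groups. Nuclear members summed to 9151, 9130.3 and 9189.8 CPM in the SPNS2 libraries, against 9311, 9342 and 9559 CPM in the empty vector libraries. The groups did not overlap, with means of 9157 ± 30.2 CPM with SPNS2 and 9404 ± 135 CPM with the empty vector (SD, n = 3 each), a ratio of 0.974, or 0.969 without empty vector library 1. Mitochondrial members summed to 57331, 57625 and 56127 CPM in the SPNS2 libraries, against 52471, 57027 and 57961 CPM in the empty vector libraries. These overlapped, at 57028 ± 794 CPM with SPNS2 and 55820 ± 2937 CPM with the empty vector (SD, n = 3 each). Without empty vector library 1 the empty vector mean was 57494 CPM, so that the direction turned and the mean with SPNS2 was 0.992 times as high. The median log2 fold change of the 13 mitochondrial genes, 0.0042, was -0.051 without that library, -0.011, 0.011 and 0.010 without SPNS2 library 1, 2 or 3, and 0.031 and 0.020 without empty vector library 2 or 3. The ratio of the nuclear to the mitochondrial sum was 0.160, 0.158 and 0.164 in the SPNS2 libraries, against 0.177, 0.164 and 0.165 in the empty vector libraries. SPNS2 library 3 and empty vector library 2 nearly touched in this ratio, and without empty vector library 1 the empty vector mean was 0.164 in place of 0.169. Of 82 nuclear members tested, 15 were called lower and 3 higher, and of 13 mitochondrial members 1 and 1. Called members made up 21.95% of the nuclear and 15.4% of the mitochondrial members, against 24.5% of all rows. For nuclear members the share was 18.3% lower and 3.66% higher, against 12.6% and 11.9% of all rows. Without SPNS2 library 1 or without empty vector library 3, 9 nuclear members were called lower. Lower calls over all rows then fell from 1683 to 1167 and 1296.

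**Figure D4:**
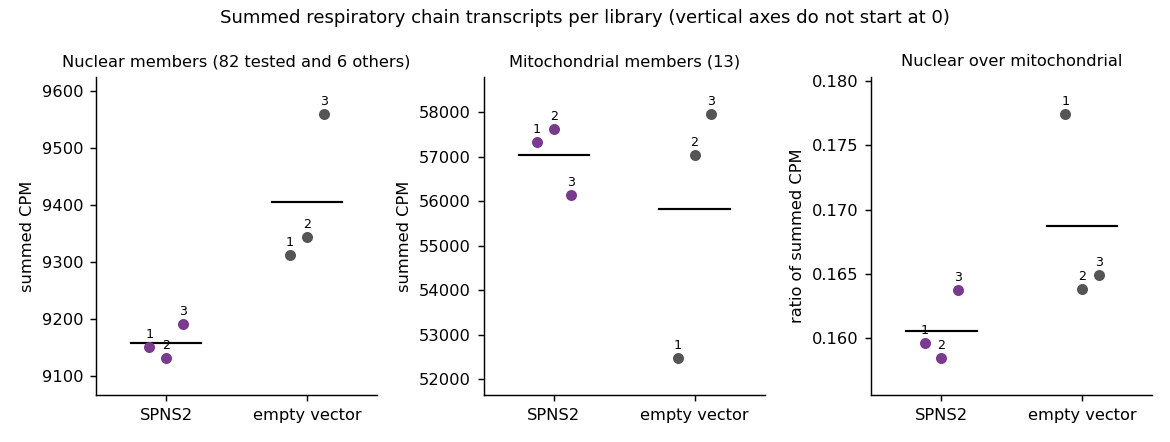
Summed CPM of nuclear members (left), of mitochondrial members (middle) and the ratio of both (right) in each library, numbered by replicate, SPNS2 in purple and empty vector in grey, with black bars at the means and axes that do not start at 0. Nuclear sums do not overlap (9130.3 to 9189.8 CPM with SPNS2 against 9311 to 9559 CPM), mitochondrial sums overlap, and empty vector library 1 is apart in the middle and right panels.

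The other genes of the pathway were mostly not called either, and those that were went mainly down. Over 11 supporting lists with 198 tested genes, 27 were lower and 6 higher, which are 13.6% and 3.03%, against 12.6% and 11.9% of all rows. Lower genes made up 18.4% of the mitochondrial ribosome, 23.5% of the tricarboxylic acid cycle list and 25% of the nuclear regulators. They made up 14.3, 5.88 and 4.17% of the complex III, I and IV assembly lists. The coenzyme Q, mitochondrial DNA and mitochondrial mRNA lists had 7.14, 10 and 11.1% lower. Higher genes made up 16.7% of the complex IV assembly list and 14.3% of that for complex III. The mitochondrial ribosome, which translates the mitochondrial mRNAs, had 14 of 76 genes lower and 1 higher. That is 19.7% called, against 24.5% of all rows, and the median log2 fold change of the list was -0.061. The 14 became 9 and 8 without SPNS2 library 1 or 2 and 9 without empty vector library 3. MRPS2, a small subunit protein, averaged 59.0 ± 0.0615 CPM with SPNS2 and 67.5 ± 0.731 CPM with the empty vector (SD, n = 3 each). MRPS34, MRPS5 and MRPL12 fell too, with log2 fold changes of -0.19, -0.17 and -0.20 (edgeR adjusted p = 0.00194, 0.00240 and 0.00244). Complex I assembly factors had 1 of 17 lower, ACAD9 (-0.23, edgeR adjusted p = 0.000354), an acyl-CoA dehydrogenase family member that acts as an assembly factor, and 2, 3 and 2 were lower without SPNS2 library 2, empty vector library 1 or empty vector library 2. ACAD9 stood at 64.5, 66.0 and 66.9 CPM in the SPNS2 libraries, against 77.6, 77.9 and 75.9 CPM in the empty vector libraries, without overlap. Complex IV assembly had 4 of 24 higher, COX18, COX20, HIGD2A and, named after its values were seen, COA5, and COA7 lower. The count of 4 was 2, 1 and 1 without SPNS2 library 1, 2 or 3 and 0, 2 and 2 without empty vector library 1, 2 or 3. It thus fell whichever library was left out, and higher calls over all rows fell too, from 1580 to between 1079 and 1294. COX18, which inserts part of MT-CO2 into the membrane, averaged 26.5 ± 1.35 CPM with SPNS2 and 23.0 ± 1.28 CPM with the empty vector (SD, n = 3 each), a log2 fold change of 0.21 (SE 0.0561, edgeR adjusted p = 0.0201), which was not called without SPNS2 library 1 or empty vector library 1 (edgeR adjusted p = 0.0917 and 0.0665). COA7 fell by 0.19 (edgeR adjusted p = 0.00107), and COX20 rose by 0.14 (0.0308) on the log2 scale.

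The complex III assembly list had UQCC3 (-0.23, edgeR adjusted p = 0.00971) lower and LYRM7 (0.12, 0.0472), which delivers UQCRFS1, higher of the 7 genes listed. The list also held CHCHD1, a protein of the mitochondrial ribosome and not an assembly factor, which was not called (-0.12, edgeR adjusted p = 0.105). The LYRM7 call was lost whichever library was left out (edgeR adjusted p = 0.0522 to 0.181). The 4 complex II and 4 complex V assembly factors had no call. Among 14 genes of electron carriers and coenzyme Q synthesis PDSS1 (-0.16, edgeR adjusted p = 0.0274), which makes the side chain of coenzyme Q, was lower, but not without SPNS2 library 1 or empty vector library 2 or 3 (edgeR adjusted p = 0.112, 0.0818 and 0.0620). Of 10 genes of mitochondrial DNA transcription and maintenance, POLG (-0.14, edgeR adjusted p = 0.0171), the polymerase that copies mitochondrial DNA, was lower, but not without SPNS2 library 2 or 3 (edgeR adjusted p = 0.0551 and 0.0548), and 2 genes were lower without empty vector library 3. The list for the handling of mitochondrial mRNAs held 18 genes, with TWNK also in the list before it. Of these, 2 were lower, TBRG4 (-0.13, edgeR adjusted p = 0.0139) and LRPPRC (-0.088, 0.0217), which stabilises mitochondrial mRNAs. The count was 0 without SPNS2 library 1 or 2 and 1 without SPNS2 library 3 or empty vector library 2. LRPPRC stood at 289, 291 and 288 CPM in the SPNS2 libraries, against 303, 313 and 307 CPM in the empty vector libraries, and its call was lost without SPNS2 library 1, 2 or 3 or empty vector library 2 or 3 (edgeR adjusted p = 0.0508 to 0.0862). Of 8 nuclear regulators, MYC and PPRC1, a PGC-1 family coactivator, were lower, and MYC stood at 569, 569 and 558 CPM in the SPNS2 libraries, against 639, 656 and 627 CPM in the empty vector libraries. MYC was lower in every SPNS2 library, at -0.18 (SE 0.0241, edgeR adjusted p = 0.000367), and kept its call under every alternative tried, whereas PPRC1 lost it without SPNS2 library 1 or 3 or empty vector library 2 (edgeR adjusted p = 0.0856, 0.0584 and 0.0668). Of 17 genes of the tricarboxylic acid cycle and pyruvate dehydrogenase, 4 were lower and 0 higher, namely MDH2 (-0.098, edgeR adjusted p = 0.0187), FH (-0.13, 0.0195), PDHA1 (-0.10, 0.0229) and IDH3G (-0.097, 0.0333). These 4 became 1, 1 and 0 without SPNS2 library 1, 2 or 3 and 2 and 2 without empty vector library 1 or 3. With DESeq2 the calls of COX20, HIGD2A, COA5, LYRM7, PDSS1 and IDH3G were lost (adjusted p = 0.0737, 0.131, 0.117, 0.167, 0.0689 and 0.0894). With offsets for GC content and length those of COX20, COA5, LYRM7 and IDH3G were lost (edgeR adjusted p = 0.0606, 0.0830, 0.298 and 0.0538). HIGD2A and LYRM7 also lost theirs with no filter (edgeR adjusted p = 0.0618 and 0.0651) and with limma voom (adjusted p = 0.0509 and 0.0554). The count of 27 lower genes was 15 without SPNS2 library 1 and 16 without SPNS2 library 2. Lower calls over all rows were then 1167 and 1239 in place of 1683. The count of 6 higher genes was 3, 2 and 2 without SPNS2 library 1, 2 or 3, and 1 and 3 without empty vector library 1 or 2.

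Among nuclear members, the fold change moved with the GC content of the transcript. Across the 82 tested genes, which are not independent replicates and share the 6 libraries, Pearson's r between log2 fold change and GC content was -0.34 and Spearman's rho -0.46, beside -0.092 and -0.14 over 13259 rows with a value. In the 28 members of lowest GC content (35.0 to 45.0%) the median log2 fold change was 0.015, with 1 higher and 1 lower. In the middle 27 it was -0.032, with 1 higher and 4 lower. In the 27 of highest GC content (53.1 to 65.0%) it was -0.097, with 1 higher and 10 lower. All rows in the same ranges of GC content had medians of 0.028, -0.0076 and -0.022, with 7.88, 13.5 and 17.2% lower. COX6B1, among the GC-rich members, rose, and NDUFB9, of the middle group, had the smallest p, so the order was not followed by each gene. With offsets per library for GC content and length, an alternative added after the data were seen, 21 members were called lower and 4 higher, and of all rows 2174 were lower and 1417 higher (39.5% of calls higher, against 48.4% without offsets). The median over all rows was -0.017 with these offsets and 0.0026 without them, so that rows in general were placed lower. The part of GC content in the falls was not tested. Length showed no such order, with r = 0.14 over the nuclear members.

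**Figure D5:**
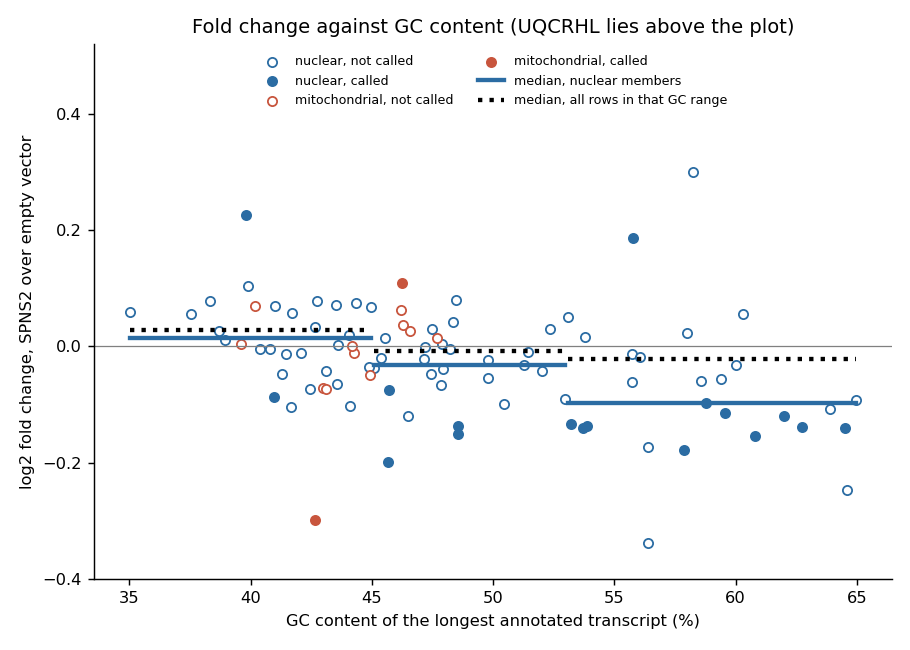
Log2 fold change, SPNS2 over empty vector (vertical axis), against the GC content of the longest annotated transcript (horizontal axis) for tested members, nuclear in blue and mitochondrial in red, filled where called; UQCRHL, at 0.61, is off the plot. Solid bars are medians of the nuclear members in each of the 3 GC ranges (0.015, -0.032 and -0.097) and dotted bars the medians of all rows in the same ranges (0.028, -0.0076 and -0.022).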

How the data were processed

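RNA from 6 ME-1 libraries was sequenced after TruSeq Stranded mRNA preparation, per the labels' protocols. The authors deposited 1 table of estimated counts by gene. Salmon is the only tool named, per the submitters' processing notes, and genome build, annotation or strand setting is not given in the sources used here. All deposited counts were whole, so rounding changed nothing. Libraries were grouped by title, and all 6 columns were used. GENCODE 29 gave gene type, length and GC content (99.6% of tested rows).

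Low rows were removed with filterByExpr (minimum count 10, minimum total 15). TMM factors ran from 0.993 to 1.01. Main tests used edgeR 4.0.16 (R 4.3.3), quasi-likelihood, with group as the only term and Benjamini-Hochberg adjustment over 13308 rows, calling at 0.05 with no minimum fold. The SE is |log2 fold change| divided by the root of F. The biological coefficient of variation was 4.32%. Totals of 28605187 to 38489992 counts set the counting limits, where a 0 allows 3 counts. Within groups, chi-square per degree of freedom was 3.11 to 6.09, so no library was a duplicate. Scripts were tested on simulated counts. Alternatives were DESeq2 1.42.0, limma voom (limma 3.58.1), RLE scaling, other filters, library sizes without mitochondrial rows, a replicate block, offsets for GC content and length (without the block, added after seeing the data), and leaving out each library.

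Members and lists were chosen with earlier results of these data known. Values per library are given for mitochondrial members, called nuclear members, isoform pairs and catalytic subunits, not all of which are reported here, and up to 4 genes of smallest p are named per supporting list. Motifs and promoters (RefSeq, GRCh38.p14, 250 bases before to 50 after the start) were chosen after values were seen.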

Additional observations from a re-analysis of the deposited data

How the results depend on the processing

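Of the 20 called members, 11 kept their call under every alternative tried (COX6B1, CYC1, MT-CO1, MT-ND6, NDUFA13, NDUFB5, NDUFB8, NDUFB9, NDUFS5, NDUFS8 and SDHB), and 0 changed sign. RLE scaling, limma voom, no filter and leaving mitochondrial rows out of library sizes moved no count of called members or supporting genes by over 1.5 times. With GC content and length offsets, 2 mitochondrial and 2 complex IV members were lower, the complex II median was -0.023, and 3 supporting genes were higher and 42 lower. A mean CPM of at least 5 left complex V with 1 lower. It left complex III with 0 higher because UQCRHL, at 1.97 CPM with SPNS2 and 1.29 with the empty vector, was not tested there. With DESeq2 0 complex III members and 2 supporting genes were higher.

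Deviations of same-numbered libraries from their group means correlated at 0.031, 0.038 and -0.019. With 3 libraries per group these values cannot exclude that a shared number marks a shared culture or batch. With the replicate block, 3 members were higher and 12 lower, with 0 higher in complex III, 0 lower in complex V and 3 supporting genes higher; of all rows 2723 were called. ATP5F1A, ATP5MC3, NDUFB10, NDUFS7 and UQCRHL lost their calls. With the replicate block and GC content and length offsets, 3 members were higher and 18 lower, mitochondrial members had 2 lower, complex III 0 higher, complex IV 2 lower, the complex II median was -0.024, supporting genes had 2 higher and 41 lower, and 38.3% of the 3210 calls over all rows were higher. No same-numbered pairing is stated in the labels.

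With 1 library left out, members lower ranged over 10 to 17, nuclear members lower over 9 to 13, mitochondrial members lower over 1 to 4, complex I over 1 to 2 higher and 6 to 13 lower, complex III over 0 to 1 higher and 1 to 3 lower, complex V over 0 to 1 higher and 0 to 1 lower, and supporting genes over 1 to 5 higher and 15 to 29 lower. Over all rows, 1079 to 1294 were called higher and 1167 to 1444 lower in these settings, against 1580 and 1683 with all libraries. Medians ranged from -0.047 to -0.0054 over all members, from -0.047 to 0.012 over complex III, from -0.034 to 0.032 over complex IV, from -0.026 to 0.025 over complex V and from -0.051 to 0.031 over mitochondrial members. Small values changed sign among members that were not called, and the cause was not tested. ATP5MC1 was at -0.00034 with no filter and at -0.0093 and -0.0097 with offsets without and with the block. MT-ATP8 was at -0.00059, -0.026 and -0.026 under the same settings. At a mean CPM of at least 5, COX6A1, MT-ATP6 and NDUFA4 were at 0.0018, 0.0057 and 0.00056, and MT-ATP6 was at 0.0019 without mitochondrial rows in library sizes, 0.0014 with the block and 0.0029 with limma voom. With 1 library left out, log2 fold changes ranged over -0.028 to 0.046 for ATP5MC1, -0.033 to 0.017 for COX6A1, -0.10 to 0.054 for COX7B, -0.049 to 0.031 for MT-ATP6, -0.069 to 0.063 for MT-ATP8, -0.011 to 0.095 for MT-CO3, -0.051 to 0.053 for MT-ND1, -0.0072 to 0.14 for MT-ND3, -0.068 to 0.019 for MT-ND4, -0.052 to 0.033 for NDUFA4, -0.14 to 0.0091 for NDUFS3. Members with few counts, NDUFA3, UQCRHL, COX6B2 and NDUFS3, had wide SEs of 0.33, 0.17, 0.17 and 0.12. Why their counts are low was not tested. The median SE of 0.037 limits what could be called among the rest.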
